A study of Mus musculus with 9 samples.

Results

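The endothelium of brain vessels keeps drugs and toxins out with ATP-driven efflux pumps of the ATP-binding cassette (ABC) family, and it lets glucose, lactate and selected proteins through with dedicated carriers and receptors. The 9 genes described here cover both sides of this traffic. They are the efflux pumps Abcb1a, Abcb1b, Abcg2, Abcc1, Abcc4 and Abcc5, the glucose carrier Slc2a1, the monocarboxylate carrier Slc16a1 and the endocytic receptor Lrp1. They were chosen by name from the 54532 genes of the expression table, and all 9 were found in it.

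The libraries came from b.End3 cells (B.END3), a transformed endothelial line from mouse brain that the labels assign to strain C57BL/6 and to brain microvessel endothelium. Photodynamic therapy (PDT) combines a light-absorbing drug with light to form reactive oxygen species. RNA sequencing compared 3 untreated libraries (Ctrl) with 3 libraries of cells at a light dose of 10 J/cm2 (Ep1) and 3 at 20 J/cm2 (Ep2). Before irradiation at 635 nm and 100 mW/cm2, monolayers of both treated groups took up 300 µg/mL porfimer sodium, a porphyrin photosensitizer, for 90 min. No library with the drug alone or with light alone was analysed here, so the effects of drug, light and their combination cannot be told apart. All libraries are of 1 cell line, and the labels do not say that the 3 libraries of a group are separate cultures, so p-values measure only the spread between these libraries. In bulk RNA, fewer cells of a type and less RNA per cell cannot be told apart either.

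Levels are given in FPKM, fragments scaled to gene length and to library size. Comparisons between genes, such as an order of levels, depend on the gene length that was used. For Abcb1b that length was 7990 bases, while its longest coding transcript in GENCODE M39 has 5614. From 16240688 to 19509225 fragments per library fell on genes. Of 18 endothelial marker genes, 4 passed the filter of the test, which asks for 3 or more libraries at 1 FPKM or above. They were Flt1 (6.90 FPKM in Ctrl), Egfl7, Ocln and Eng. Emcn, Erg, Robo4 and Sox17 had no fragment in any library, and the mean of Cldn5, the main claudin of brain endothelium, was 0.0254 FPKM in Ctrl and 0 in Ep1 and Ep2. The summed level of the 18 genes was 12.9 to 13.2 FPKM in Ctrl, 13.0 to 14.6 in Ep1 and 16.2 to 17.1 in Ep2. Flt1 carried the rise in Ep2, with means of 6.90, 7.25 and 10.9 FPKM in Ctrl, Ep1 and Ep2. Of the 4 tested markers it was the 1 called between Ep2 and Ctrl (limma adjusted p = 9.67e-05). Of 11 epithelial markers, Esrp1, Krt5 and Krt7 were at 0, while Krt8, Krt18 and Krt19, which encode keratins, stood at 640, 237 and 174 FPKM in Ctrl. The sum of this list was 1030 to 1080 FPKM in Ctrl, 938 to 1040 in Ep1 and 1160 to 1370 in Ep2, and the part of these shifts in the results on transporters was not tested. Most endothelial markers were thus absent or near 0, which goes against the label, and the cells are called here by the name of the line only. The sums were 38.6 to 43.4, 34.9 to 37.0 and 33.5 to 41.4 FPKM in Ctrl, Ep1 and Ep2 for 9 pericyte markers, 13.0 to 13.9, 12.6 to 15.1 and 8.21 to 9.44 for 7 astrocyte markers, and 41.7 to 43.8, 37.1 to 42.1 and 41.2 to 49.6 for 7 fibroblast markers. Single genes carried these sums and their shifts, Anpep (38.2, 33.0 and 33.5 FPKM) for the pericyte list, Gja1 (13.3, 13.7 and 8.63) for the astrocyte list and mostly Col3a1 (35.3, 32.2 and 37.9) for the fibroblast list. For 6 leukocyte markers the sum stayed at or below 0.21 FPKM.

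The DNA before the start sites of 5 transporters is shown first, because their calls at the higher dose held whichever library was left out and they moved in both directions. Slc2a1 and Abcc4 rose, and Abcb1b, Slc16a1 and Lrp1 fell. Each sequence is the 250 bases before the start in RefSeq on build GRCm38.p6, written 5′ to 3′ on the strand of the gene. Capitals mark ACGTG, the core of the hypoxia response element, and CCAAT, the CCAAT box, on either strand.
Slc2a1: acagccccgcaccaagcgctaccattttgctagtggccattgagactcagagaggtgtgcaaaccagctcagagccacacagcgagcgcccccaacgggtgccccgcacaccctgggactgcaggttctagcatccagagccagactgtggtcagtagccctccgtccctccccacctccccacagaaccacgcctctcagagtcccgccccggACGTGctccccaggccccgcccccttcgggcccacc
Abcc4: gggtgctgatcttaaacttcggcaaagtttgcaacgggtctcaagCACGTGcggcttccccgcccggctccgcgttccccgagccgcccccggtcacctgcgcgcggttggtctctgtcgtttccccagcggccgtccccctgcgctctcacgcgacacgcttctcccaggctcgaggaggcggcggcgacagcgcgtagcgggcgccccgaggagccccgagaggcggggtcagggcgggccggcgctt
Abcb1b: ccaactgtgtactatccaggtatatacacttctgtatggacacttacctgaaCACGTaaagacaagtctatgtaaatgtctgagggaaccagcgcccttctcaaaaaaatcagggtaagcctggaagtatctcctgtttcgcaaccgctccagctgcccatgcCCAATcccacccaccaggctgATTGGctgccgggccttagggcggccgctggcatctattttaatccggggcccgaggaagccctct
Slc16a1: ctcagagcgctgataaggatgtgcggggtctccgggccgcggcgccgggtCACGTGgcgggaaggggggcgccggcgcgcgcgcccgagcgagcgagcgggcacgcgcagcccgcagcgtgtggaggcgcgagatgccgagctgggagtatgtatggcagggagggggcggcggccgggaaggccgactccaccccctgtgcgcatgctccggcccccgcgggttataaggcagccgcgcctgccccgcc
Lrp1: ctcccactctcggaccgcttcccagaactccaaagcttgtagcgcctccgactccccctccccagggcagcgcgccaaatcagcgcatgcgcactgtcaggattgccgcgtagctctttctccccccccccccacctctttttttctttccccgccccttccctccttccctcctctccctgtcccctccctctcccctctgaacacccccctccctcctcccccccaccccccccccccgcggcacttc
The windows are chr4:119108495-119108744 on the plus strand, chr14:118706220-118706469 on the minus strand, chr5:8797897-8798146 on the plus strand, chr3:104638414-104638663 on the plus strand, and chr10:127621149-127621398 on the minus strand for Lrp1. ACGTG was found in 4 of the 5 windows shown, not in that of Lrp1, nor in those of Abcg2 and Abcc5. It was found in 16.6% of 32851 RefSeq windows of this length. In Abcc4 and Slc16a1 it stands as CACGTG, which holds the 5 letters on both strands. CCAAT was found in Abcb1b at 87 and 66 bases before the start, and in 33.8% of all windows. GGGCGG, the GC box, was found in Abcb1b, Abcc4, Slc2a1, Slc16a1 and Lrp1, and in 32.7% of all windows. TGACNNNGC, the core of the antioxidant response element, was found in Abcc4, Slc16a1 and Lrp1, and in 10.2% of all windows. TATAAA, the TATA box, was found in none of the 8 members with an entry and in 12.4% of all windows. Such matches are letters in a window and were not tested as sites. Abcc1 had no entry, and the entry of Abcb1a lay 92986 bases from the start of the gene in the expression table and is not shown.

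The 9 genes spanned a wide range of levels. In Ctrl the order by mean was Slc16a1 (107 FPKM), Slc2a1 (93.2), Lrp1 (26.1), Abcc4 (18.2), Abcc1 (10.9), Abcg2 (8.02), Abcc5 (7.49), Abcb1b (4.38) and Abcb1a (0.373). The libraries of neighbours in this order did not overlap in Ctrl, and the same held for the unchanged order in Ep1. In Ep2 the order changed in 2 places, since Slc2a1 (134 FPKM) stood above Slc16a1 (88.7) and Abcc4 (22.6) above Lrp1 (19.7). The only neighbours whose libraries overlapped in Ep2 were Abcc1 (10.6 FPKM) and Abcg2 (9.45). The plot of member levels shows these values by library.

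**Figure D1:**
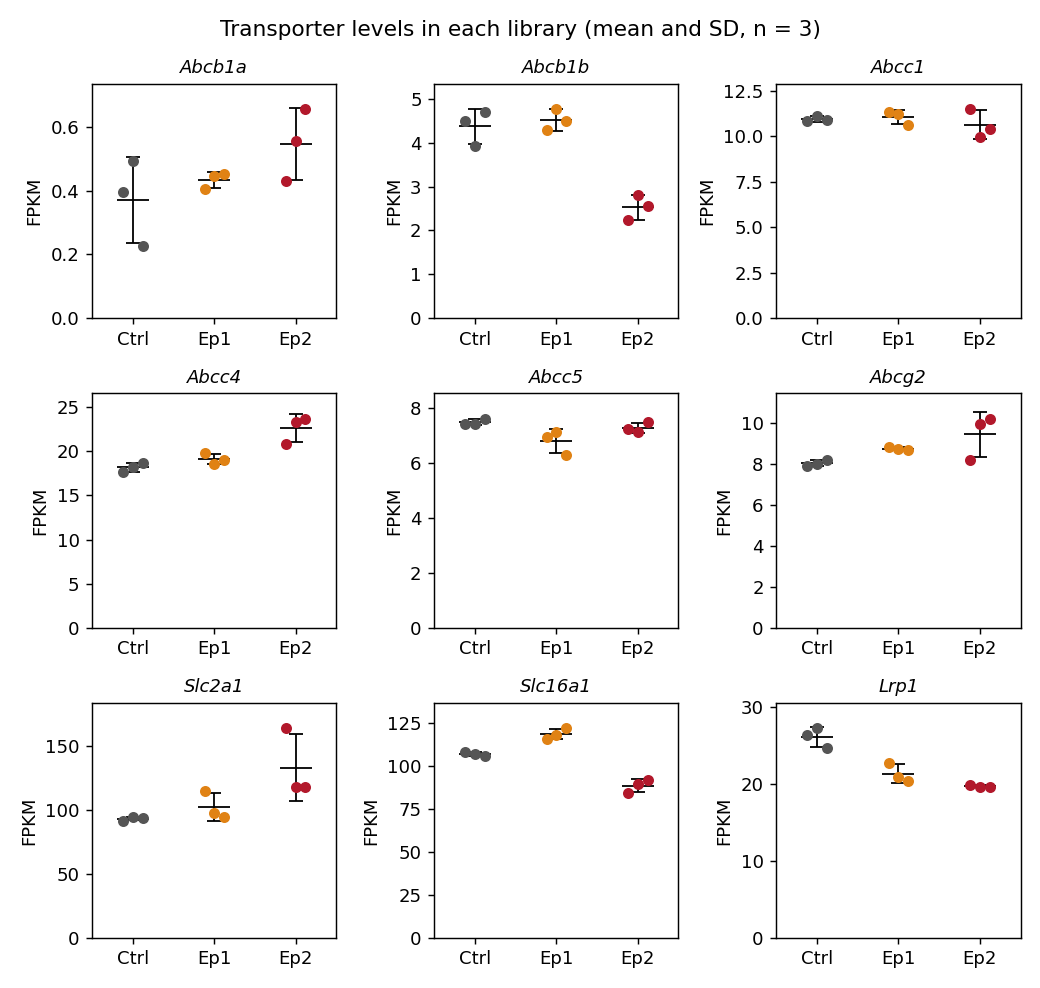
Level in FPKM (y axis, from 0) of each of the 9 transporter genes in the 3 libraries of Ctrl, Ep1 and Ep2 (points), with mean and SD (bars, n = 3). Abcb1b lay between 2.23 and 2.80 FPKM in Ep2 and between 3.92 and 4.78 in the other groups, and Slc2a1 replicate 1 of Ep2 stood at 164 FPKM above 118 in both other replicates.

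Of the 9 genes, 8 passed the filter, and Abcb1a did not. They were tested in one fit over 11727 genes with limma on log2(FPKM + 1), where a log2 fold change understates the change of low genes. Between Ep1 and Ctrl, 1 of the 8 passed an adjusted p of 0.05, Lrp1 with a lower level, while 11.3% of all tested genes passed, 6.32% with a higher and 4.97% with a lower level. At an unadjusted p below 0.05 there were 3 of 8, but the share of all tested genes at this unadjusted level was not computed. Between Ep2 and Ctrl, 6 of the 8 passed, against 53.2% of all tested genes. Slc2a1, Abcc4 and Abcg2 rose (23.9% of all genes rose), and Abcb1b, Lrp1 and Slc16a1 fell (29.3% of all genes fell). Between Ep2 and Ep1, 4 of the 8 passed, Slc2a1 and Abcc4 higher and Abcb1b and Slc16a1 lower, against 44.0% of all tested genes (18.8% higher and 25.2% lower). These shares of risen and fallen genes depend on the scaling. Among all genes called between Ep2 and Ctrl, 44.9% were higher in the main fit and 52.7% after median centring. For Ep2 against Ep1 the values were 42.8% and 55.5%. In the main fit, an absolute log2 fold change above 0.6 was also required, as for the DEGs of the study. Abcb1b alone of the 8 then passed between Ep2 and Ctrl (9.17% of all tested genes) and between Ep2 and Ep1 (5.9%). No member passed between Ep1 and Ctrl (0.793%). The values of Abcb1b, -0.61 and -0.65, were close to this cutoff, and after median centring they were -0.56 and -0.59. Slc2a1 between Ep2 and Ctrl ranged from 0.50 to 0.63 in the 8 alternatives that did not omit a library. The median log2 fold change of the 8 genes was 0.05, -0.04 and 0.02 in the 3 comparisons, and that of all tested genes was -0.009, -0.029 and -0.015. Both treated groups were compared with the same 3 Ctrl libraries, so the first 2 comparisons are not independent.

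**Figure D2:**
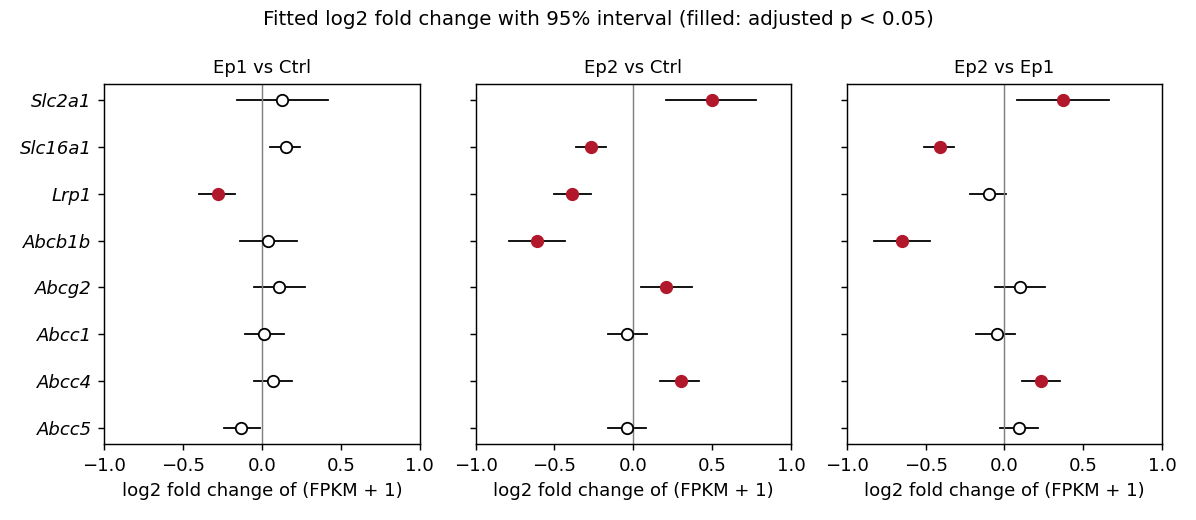
Fitted log2 fold change of (FPKM + 1) on the x axis for the 8 tested transporters, with 95% intervals, between Ep1 and Ctrl, Ep2 and Ctrl, and Ep2 and Ep1, where filled points passed an adjusted p of 0.05. In the middle panel Slc2a1, Abcc4 and Abcg2 lie to the right of 0 and Abcb1b, Lrp1 and Slc16a1 to the left.

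Abcb1b, 1 of the 2 mouse genes for P-glycoprotein, the pump that exports many lipophilic drugs, had the largest fall of the 8 genes at the higher dose. The gene (ENSMUSG00000028970) lies on chromosome 5 from 8798147 to 8866315 on GRCm38. Its level was 4.51, 3.92 and 4.70 FPKM in the Ctrl libraries, 4.30, 4.78 and 4.49 in Ep1 and 2.23, 2.80 and 2.56 in Ep2. Every Ep2 library lay below every library of the other groups, while Ctrl and Ep1 overlapped. The values rest on 340 to 698 fragments per library. The mean ratio of Ep2 to Ctrl was 0.578, and the log2 fold change was -0.61 ± 0.0798 (SE, n = 3 per group, limma adjusted p = 0.00021). Between Ep1 and Ctrl it was 0.04 (95% interval -0.14 to 0.22, limma adjusted p = 0.778), and between Ep2 and Ep1 it was -0.65 ± 0.0798 (SE, limma adjusted p = 0.000223). With a pseudocount of 0.1, the fall from Ctrl to Ep2 was -0.77 on the log2 scale.

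Abcb1a, the second P-glycoprotein gene and the usual form of brain vessels, was near the limit of detection. The gene (ENSMUSG00000040584) lies on the same strand of chromosome 5 from 8660077 to 8748575, with 49571 bases between both genes. It stood at 0.397, 0.494 and 0.226 FPKM in Ctrl, 0.405, 0.446 and 0.452 in Ep1, and 0.431, 0.556 and 0.659 in Ep2, which are 23 to 60 fragments per library. All groups overlapped. With voom on the recovered fragments, which keeps low genes, its log2 fold change between Ep2 and Ctrl was 0.60 (limma adjusted p = 0.0654).

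Abcb1a and Abcb1b are close copies, and fragments of shared stretches could have been counted for either gene. In the longest coding transcripts of GENCODE M39, 8.93% of the 50-base windows of Abcb1a also occurred in Abcb1b, as did 3.77% of its 150-base windows, and the longest identical run was 338 bases. The sum of both genes depends less on how such fragments were split, though not fully, since FPKM weighs a fragment by the length of its gene. As plain fragments, free of the split, the sum was 666 to 737 in Ctrl, 675 to 712 in Ep1 and 385 to 476 in Ep2. In FPKM, Ctrl had a sum of 4.75 ± 0.291 FPKM (SD, n = 3), Ep1 one of 4.96 ± 0.264 and Ep2 one of 3.08 ± 0.368. The difference of -1.67 FPKM between Ep2 and Ctrl separated all libraries (two-sided exact permutation p = 0.1, the smallest that 3 against 3 can give, and 0.225 after adjustment over 9 tests). Abcb1a made up 7.96 ± 3.31% of the sum (SD, n = 3) for Ctrl, 8.77 ± 0.335% for Ep1 and 17.7 ± 2.37% for Ep2. The Ep2 share was above every Ctrl library (exact permutation p = 0.1, adjusted 0.225), while the level of Abcb1a itself gave an exact permutation p of 0.2 between Ep2 and Ctrl.

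**Figure D3:**
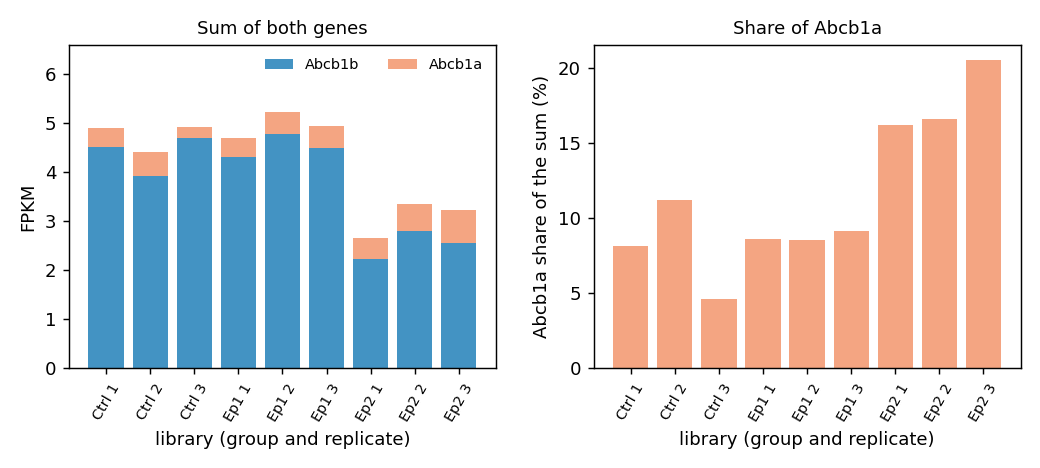
Left, FPKM of Abcb1b and Abcb1a stacked for each of the 9 libraries (bars from 0), and right, the share of Abcb1a in that sum in percent. The sum was 2.66 to 3.36 FPKM in Ep2 and 4.42 to 5.23 in the other groups, and the share was 16.2% to 20.5% in Ep2 and 4.58% to 11.2% in the others.

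Abcg2, the breast cancer resistance protein, exports many of the same drugs and porphyrins. Its gene (ENSMUSG00000029802, chromosome 6 from 58584523 to 58695676) gave 7.91, 7.99 and 8.17 FPKM in Ctrl, 8.81, 8.72 and 8.67 in Ep1, and 8.19, 9.95 and 10.2 in Ep2. Both treated groups lay above Ctrl without overlap, but replicate 1 of Ep2 (8.19) was close to the highest Ctrl library (8.17). The log2 fold change was 0.11 between Ep1 and Ctrl (95% interval -0.05 to 0.27, limma adjusted p = 0.336) and 0.21 ± 0.0708 (SE) between Ep2 and Ctrl (limma adjusted p = 0.0333). This call was lost in 5 of 6 fits that left out 1 library, with limma adjusted p of 0.0866, 0.0797 and 0.0581 without Ctrl replicates 1, 2 and 3 and 0.11 without either Ep2 replicate 2 or 3. Without Ep2 replicate 1, the log2 fold change was 0.30 (limma adjusted p = 0.000452). After a correction for gene length and GC content it was 0.07 (limma adjusted p = 0.333).

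The 3 members of the ABCC family, which export conjugates and organic anions, behaved differently from each other. Abcc4, the pump of cyclic nucleotides and prostaglandins (ENSMUSG00000032849, chromosome 14 from 118482692 to 118706219), was at 17.7, 18.2 and 18.7 FPKM in Ctrl, 19.8, 18.6 and 19.0 in Ep1, and 20.8, 23.3 and 23.7 in Ep2. All Ep2 libraries were above all others, and Ctrl and Ep1 overlapped. The rise between Ctrl and Ep2 was 0.30 ± 0.0541 on the log2 scale (SE, limma adjusted p = 0.00144), and between Ep1 and Ep2 it was 0.23 (limma adjusted p = 0.00776). Between Ctrl and Ep1 the value was 0.07 (95% interval -0.05 to 0.19, limma adjusted p = 0.439).

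Abcc1, the pump of glutathione and glucuronide conjugates (ENSMUSG00000023088, chromosome 16 from 14361558 to 14475737), was at 10.8, 11.1 and 10.9 FPKM in Ctrl, 11.3, 11.2 and 10.6 in Ep1, and 11.5, 9.95 and 10.4 in Ep2. The groups overlapped in every comparison, and its log2 fold change between Ep2 and Ctrl was -0.04 (95% interval -0.16 to 0.09, limma adjusted p = 0.58). Abcc5, a further exporter of cyclic nucleotides (ENSMUSG00000022822, chromosome 16 from 20331303 to 20426394), was at 7.43, 7.43 and 7.61 FPKM in Ctrl, 6.94, 7.14 and 6.29 in Ep1, and 7.24, 7.11 and 7.48 in Ep2. The Ep1 libraries lay below the Ctrl libraries, but the log2 fold change of -0.13 (95% interval -0.24 to -0.01) had a limma adjusted p of 0.144. Between Ep2 and Ctrl the value was -0.04 (95% interval -0.16 to 0.08, limma adjusted p = 0.57).

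Slc2a1 (GLUT1), the glucose carrier of the blood-brain barrier, had the largest rise of the 8 genes at the higher dose. The gene (ENSMUSG00000028645, chromosome 4 from 119108711 to 119137983) gave 91.7, 94.3 and 93.5 FPKM in Ctrl, 115, 97.4 and 94.8 in Ep1, and 164, 118 and 118 in Ep2. The 3 groups did not overlap, but replicate 1 stood well above the others in Ep1 and in Ep2. The log2 fold change was 0.13 between Ep1 and Ctrl (95% interval -0.16 to 0.42, limma adjusted p = 0.539) and 0.50 ± 0.126 (SE) between Ep2 and Ctrl (limma adjusted p = 0.00993). Without Ep2 replicate 1 the second value was 0.34 (limma adjusted p = 0.00404). Between Ep2 and Ep1 it was 0.37 (limma adjusted p = 0.0425), and this call was lost without Ep1 replicate 2 (limma adjusted p = 0.118) or replicate 3 (0.126). The antisense genes Gm12867 and Gm12868 overlap Slc2a1, and their highest levels were 2.53 and 2.52 FPKM. Without a stated strand their reads cannot be told apart from those of Slc2a1.

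Slc16a1 (MCT1), which carries lactate, pyruvate and ketone bodies, was the most abundant member in Ctrl and fell at the higher dose. The gene (ENSMUSG00000032902, chromosome 3 from 104638668 to 104658462) gave 108, 107 and 106 FPKM in Ctrl, 116, 118 and 122 in Ep1, and 84.3, 89.8 and 91.9 in Ep2. All Ep1 libraries lay above Ctrl, and all Ep2 libraries lay below it. The value of 0.15 between Ep1 and Ctrl (95% interval 0.05 to 0.24) just missed the threshold (limma adjusted p = 0.051). It passed with a filter at 5 FPKM (limma adjusted p = 0.0412), when only the 2 groups were fitted (0.0223), and with voom on fragments (0.0489), but not in 5 other settings (up to 0.118) nor in any of the 6 fits that left out 1 library (0.0946 to 0.174). The fall between Ctrl and Ep2 was -0.27 ± 0.0413 on the log2 scale (SE, limma adjusted p = 0.000527), and between Ep1 and Ep2 it was -0.41 (limma adjusted p = 7.14e-05).

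Lrp1, a large endocytic receptor that clears amyloid-β and lipoproteins, was the only member called at both doses. The gene (ENSMUSG00000040249, chromosome 10 from 127538161 to 127621148) gave 26.3, 27.2 and 24.7 FPKM in Ctrl, 22.7, 20.9 and 20.3 in Ep1, and 19.9, 19.6 and 19.6 in Ep2. The 3 groups did not overlap, and Ep2 had the narrowest spread (SD 0.159 FPKM). Between Ep1 and Ctrl the log2 fold change was -0.28 ± 0.0517 (SE, limma adjusted p = 0.0131). This call was lost without Ctrl replicate 1 (limma adjusted p = 0.0527), Ctrl replicate 2 (0.0689) or Ep1 replicate 3 (0.0615). Between Ep2 and Ctrl it was -0.39 ± 0.0517 (SE, limma adjusted p = 0.000226), and between Ep2 and Ep1 it was -0.10 (95% interval -0.22 to 0.01, limma adjusted p = 0.129).

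Transcripts of partner proteins of these transporters were measured beside them, and 10 of 11 such genes in the table passed the filter. The list holds chaperones, scaffolds, membrane anchors, a clathrin adaptor and an inhibitor of glucose uptake, so its counts mix different roles. Between Ep2 and Ctrl, 4 rose and 3 fell, so 70.0% were called against 53.2% of all tested genes, with a median of -0.04 on the log2 scale. Bsg, which encodes basigin, the chaperone of Slc16a1, went the other way than its client, with 351 ± 6.48 FPKM for Ctrl and 445 ± 47.3 for Ep2 (SD, n = 3), a log2 fold change of 0.34 (limma adjusted p = 0.00339). Emb, whose product embigin is a second chaperone of monocarboxylate carriers, fell by 0.23 on the log2 scale (limma adjusted p = 0.00996). Ezr and Msn, which anchor membrane proteins to actin, rose by 0.23 (limma adjusted p = 0.00228) and 0.27 (0.000585). Slc9a3r1, a PDZ scaffold of transporters, fell by 0.49 (limma adjusted p = 2.08e-05), and Picalm, a clathrin adaptor, rose by 0.30 (0.000495). Gipc1, a PDZ protein that binds Slc2a1, fell by 0.27 (limma adjusted p = 0.0139), and this was lost without Ctrl replicate 2 (0.051) and with the length and GC correction (0.162). Lrpap1, the chaperone of Lrp1, had a log2 fold change of -0.09 (limma adjusted p = 0.284), Rdx, which encodes radixin, 0.00 (0.986), and Txnip, an inhibitor of glucose uptake, -0.11 (0.446). Pdzk1, a further PDZ scaffold, was under the filter. Between Ep1 and Ctrl, Picalm rose by 0.22 (limma adjusted p = 0.0203) and Slc9a3r1 fell by 0.18 (0.0308).

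Other transporters gave a background for the 9 genes. Of all tested genes, 23.9% rose and 29.3% fell between Ep2 and Ctrl in the main fit, 53.2% in all. Of 35 other ABC genes 14 were tested, and in this comparison 3 rose and 5 fell (57.1% called). Those with the smallest p were Abca5 (0.63), Abcd3 (0.38) and Abca8b (0.38) among the risen genes, and Abcb8 (-0.50) and Abcb10 (-0.45) among the fallen, all as log2 fold changes with limma adjusted p between 5.74e-05 and 0.00388. Abcb8 and Abcb10 encode mitochondrial transporters, and Abcd3 a peroxisomal one. Of 22 other sugar and monocarboxylate carriers 9 were tested and 33.3% were called. Slc2a8 (0.45) and Slc5a3 (0.47) rose, and Slc2a6 fell by 0.54. The call of Slc5a3, a myo-inositol carrier, was lost without Ctrl replicate 1 or 2 or Ep2 replicate 2 or 3 (highest limma adjusted p = 0.0908). Slc16a3 (MCT4), the lactate exporter of glycolytic cells, had 139 ± 4.91 FPKM (SD, n = 3) for Ctrl and 162 ± 30.8 for Ep2 (limma adjusted p = 0.16).

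Of 32 other carriers of the barrier 23 were tested, and between Ep2 and Ctrl 5 rose and 8 fell (56.5% called, against 53.2% of all tested genes). Slc29a1, the equilibrative nucleoside carrier, fell, with 54.5 ± 1.78 FPKM for Ctrl and 23.2 ± 2.93 for Ep2 (SD, n = 3), a log2 fold change of -1.21 (limma adjusted p = 6.21e-06). The amino acid carriers Slc7a5 (LAT1) and Slc1a5 fell by 0.52 and 0.70 on the log2 scale (limma adjusted p = 4.18e-05 and 5.38e-05). Slc30a1, a zinc exporter, rose, with 1.46 ± 0.292 FPKM for Ctrl, 4.25 ± 0.624 for Ep1 and 3.51 ± 0.457 for Ep2 (SD, n = 3, limma adjusted p = 0.00464 and 0.000237). Slc7a1, a carrier of cationic amino acids, rose by 0.32 in Ep1 (limma adjusted p = 0.00975) and by 0.22 in Ep2 (0.00477), and Slc23a2, a carrier of ascorbate, rose by 0.28 in Ep2 (0.000361). Of 23 receptors and adaptors of uptake 15 were tested, and 8 rose and 1 fell (9 of 15 called), with a median of 0.14 on the log2 scale. Picalm and Lrpap1 are also among the partners above, so the rise of Picalm is counted in both lists at both doses. Vldlr, a lipoprotein receptor related to Lrp1, rose from 6.30 ± 0.194 to 14.0 ± 1.29 FPKM (SD, n = 3, log2 fold change 1.04, limma adjusted p = 1.43e-05). Fcgrt, the neonatal Fc receptor, rose by 0.47 (limma adjusted p = 0.000402), and Tfrc, the transferrin receptor, fell by 0.52 (0.00342).

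Between Ep1 and Ctrl, 1 of 14 other ABC genes, 0 of 9 sugar and monocarboxylate carriers (limma, with 2 at an unadjusted p below 0.05 and 0 called by voom), 6 of 23 other carriers and 2 of 15 uptake genes passed, while 11.3% of all tested genes did. Among them were Slc3a2 (0.28), the common heavy chain of amino acid carriers, Slc27a1 (-0.19), Slc46a1 (-0.29), and the receptor gene Lrp12 (0.32), all as log2 fold changes. These calls and those of Picalm and Slc9a3r1 in Ep1 were lost when single libraries were left out. Without Ctrl replicate 2, the limma adjusted p was 0.0544 for Slc3a2, 0.114 for Slc27a1, 0.124 for Slc46a1, 0.0534 for Lrp12, 0.0883 for Picalm and 0.116 for Slc9a3r1. Each of them was also lost without at least 1 library of Ep1.

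**Figure D4:**
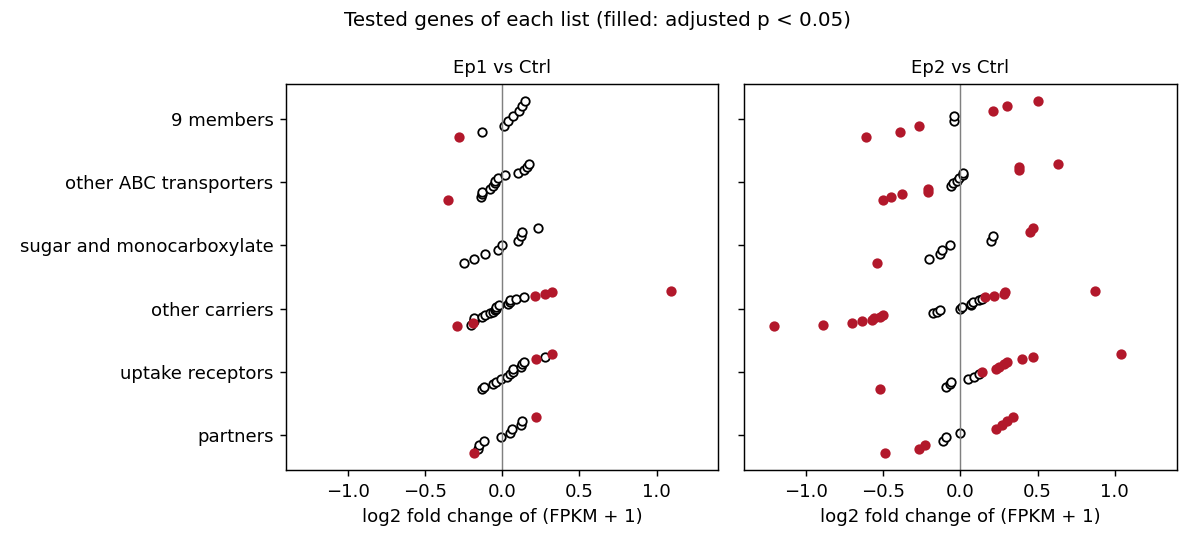
Log2 fold change of (FPKM + 1) on the x axis for each tested gene of 6 lists (rows, one point per gene, sorted), between Ep1 and Ctrl (left) and between Ep2 and Ctrl (right), filled where the adjusted p was below 0.05. In the right panel Slc29a1 lies farthest to the left at -1.21 and Vldlr farthest to the right at 1.04.

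Genes of factors known to control transporter expression were counted as well, and 13 of 18 were tested. Between Ep2 and Ctrl 7 rose and 1 fell, 61.5% of those tested, with a median of 0.14 on the log2 scale. Of all tested genes 53.2% were called, 23.9% higher and 29.3% lower in the main fit, a split that depends on the scaling. Ahr, the aryl hydrocarbon receptor, rose by 0.46 (limma adjusted p = 0.000714), Nr3c1, the glucocorticoid receptor, by 0.31 (0.000736) and Rela, a subunit of NF-κB, by 0.29 (0.000515). Trp53, which encodes p53, fell from 112 ± 4.31 to 76.8 ± 6.39 FPKM (SD, n = 3, log2 fold change -0.54, limma adjusted p = 7.36e-05). Sp1, the factor of GC boxes, rose by 0.26 in Ep1 (limma adjusted p = 0.0287), and without Ctrl replicate 2 its adjusted p was 0.108. These are transcript levels, and the activity of the factors was not measured.

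Transporter genes that the study assayed by RT-qPCR in the same model include Abcc1 and Abcc4, and 9 of the 11 could be tested here. Between Ep2 and Ctrl 4 rose and 2 fell (66.7% called, against 53.2% of all tested genes). Beside Abcc4 and Slc7a1 the risen genes were Slc35f6 (0.23) and Slc22a18 (0.38), and the fallen ones were Slc35b2 (-0.50) and Slc12a9 (-0.37), all as log2 fold changes with limma adjusted p between 0.00118 and 0.00736. Slc17a5 (-0.12, limma adjusted p = 0.378) and Abcc1 were among those that did not pass. Slc2a3 and Abcc2 were under the filter, with means of at most 0.122 and 0.0085 FPKM in any group. Since the study chose this panel, its count is not independent evidence on transporters.

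Genes whose log2(FPKM + 1) was among the most like that of a member over the 9 libraries were found for the 3 members with the largest change in Ep2. For Abcb1b they were Tmem183a (Pearson r = 0.99) and Abt1 (0.987). For Slc2a1 they were Bhlhe40, a transcriptional repressor (0.987), Mcub, a subunit of the mitochondrial calcium channel (0.983), and the kinase gene Fyn (0.977). For Lrp1 they were Hspg2, which encodes perlecan (0.984), Mkl1, a coactivator of serum response factor (0.981), and Zfp324 (0.974). These values were picked as the highest among all tested genes and share the libraries and the group differences, so they are given as a description only.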

How the data were processed

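RNA sequencing of 9 b.End3 libraries (Ctrl, Ep1 and Ep2, n = 3 each) was used, grouped by the labels. The deposited values are FPKM per Ensembl gene, which the authors normalized for gene length and library size, with gene length and position beside them. Single and joint tables hold identical values. The submitters' processing notes name Bowtie 0.12.2 and mm8, the methods name GRCm39, and 99.9% of 36526 gene positions overlap those of GRCm38 (12.4% GRCm39), so positions are on GRCm38. The growth label calls the cells rat, but the organism and the alignment are mouse. The counting tool and its use of strand are not given in the sources used here. FPKM multiplied by length gave whole multiples of 1 step per library (tolerance 0.05, 100% of values), hence 16240688 to 19509225 fragments per library. Precision was set by the spread between libraries.

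The 11727 genes that reached 1 FPKM in 3 or more libraries were fitted on log2(FPKM + 1), all libraries in one model, with limma 3.58.1 (trend, robust) in R 4.3.3, Benjamini-Hochberg adjustment within each comparison and a threshold of 0.05, two-sided. Sums and shares of Abcb1a and Abcb1b were compared by two-sided exact permutation tests. The alternatives were a minimum log2 fold change of 0.6, a pseudocount of 0.1, no filter, a filter at 5 FPKM, median centring, a block for the replicate number, a fit restricted to the 2 groups, voom on fragments (at least 10 in 3 libraries), a correction for length and GC content, and the omission of each library. The script was tested on simulated data. Members and lists were chosen with earlier results of these data known. Named were all members, partners and panel genes, and per list and dose the 3 genes with the smallest adjusted p in each direction among those called, also the 3 genes most like each of 3 members. Some genes that this rule gives are not reported here. Sequences came from RefSeq (8 of 9 members matched) and transcripts from GENCODE M39. Other software was matplotlib 3.10.9, scipy 1.17.1, pandas 2.3.3, numpy 2.4.6 and Python 3.11.15. The imaging, cytometry and RT-qPCR values were not used here.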

Additional observations from a re-analysis of the deposited data

Results flagged for a closer look

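For 2 transporters, the fitted changes from Ctrl had opposite signs at the 2 doses and the difference between the doses passed the test. Slc2a1 and Abcc4 also differed between the doses, with the same sign at both. Abcb1b had a log2 fold change of 0.04 between Ep1 and Ctrl and of -0.61 between Ep2 and Ctrl, and the difference between the doses was -0.65 (limma adjusted p = 0.000223). Slc16a1 had 0.15 and -0.27, and the difference was -0.41 (limma adjusted p = 7.14e-05). Neither value between Ep1 and Ctrl passed the threshold, and that of Abcb1b was -0.03 or -0.02 under 2 alternatives. Both differences are the comparison of Ep2 with Ep1, in which the shared Ctrl libraries cancel. Groups of 3 libraries are too small for the test of single outlying libraries.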

How the results depend on the processing

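Of 333 values of the 8 tested members under the alternatives, 311 kept their side of the threshold, and 16 lost and 6 gained it (limma). There were 0 called values that changed sign, while 9 of the 311, not called in either fit, did. With a minimum log2 fold change of 0.6 in the main fit, 0 members were called for Ep1 against Ctrl. For Ep2 against Ctrl and for Ep2 against Ep1 it was 1 member each, Abcb1b, whose values were close to the cutoff. Without that minimum, the number of members called for Ep1 against Ctrl was 2 with the filter at 5 FPKM, with only the groups compared and with voom. It was between 0 and 1 with 1 library left out, 0 without Ctrl replicate 1, Ctrl replicate 2 or Ep1 replicate 3. Leaving out 1 library gave 5 to 6 members for Ep2 against Ctrl and 3 to 5 for Ep2 against Ep1. Besides the cases named above, Slc2a1 between Ep2 and Ep1 missed the threshold with no filter (limma adjusted p = 0.0961), with only the groups compared (0.0817) and with voom (0.0599). Abcg2 between Ep2 and Ctrl missed it with no filter (0.0839) and with only the groups compared (0.0711), and between Ep2 and Ep1 it passed without Ep2 replicate 1 (0.00692). Abcc5 between Ep2 and Ep1 passed after median centring (0.0482), and Lrp1 with the length and GC correction (0.0399). Among the other lists, the length and GC correction left 0 of 2 partners and 1 of 2 uptake genes called between Ep1 and Ctrl, voom called 2 regulators there, and median centring called 2 in place of 4 sugar and monocarboxylate carriers between Ep2 and Ep1. The cause of these shifts was not tested. Over all genes, calls between Ep1 and Ctrl numbered 1324, with 396 without a filter, 2162 with only the groups compared, 1993 with voom and 192 to 1038 with 1 library left out.

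Replicate numbers did not pair the libraries, since deviations from group means of same-numbered libraries correlated between -0.056 and 0.074. With the replicate block, 1, 6 and 4 members were called in the 3 comparisons, as without it, and 1051, 6110 and 4983 genes in all. Low depth limits Abcb1a, with 23 to 60 fragments, and a filter at 5 FPKM leaves out Abcb1b.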

Other observations

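Exact matches of the RT-qPCR primers of the study were searched on both strands in the mouse transcripts of GENCODE M39, since 2 of the assays are for members. Mismatches were counted only with the forward primer as written and the reverse primer as its reverse complement. In a panel for signalling genes, all 24 primers of 12 pairs occurred without a mismatch in the mouse gene they are named for. In the panel for transporters, 0 of 11 pairs and 2 of 22 primers did. Of the pair for actin, the reference of the study, the forward primer occurred in 13 mouse genes, among them Actb. The reverse primer of that pair occurred in 8 mouse genes but not in Actb, to which it had at least 2 mismatches. The primers of the assays for Abcc1 and Abcc4 are shown, 5′ to 3′.
ABCC1 forward: ggtggacgagaaccagaagg
ABCC1 reverse: tcaagtacgtggtgacctgc
ABCC4 forward: cgtgttcttctggtggctca
ABCC4 reverse: ctcctctccaaggtgctgtg
The fewest mismatches to any transcript of mouse Abcc1 were 3 for the forward and 5 for the reverse primer. For Abcc4 they were 0 and 2. The assay labelled BCRP1 and ABCC2 carries the names of 2 genes, and its primers had at least 7 and 8 mismatches to mouse Abcc2 and at least 5 and 9 to mouse Abcg2. The species these primers were designed on was not tested, and no RT-qPCR value was used here.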
